A study of Mus musculus with 4 samples.

Results

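The zyxin and Ajuba LIM proteins were followed as 7 genes, Zyx, Lpp, Trip6, Fblim1, Ajuba, Limd1 and Wtip, out of 19938 genes measured. They were picked by family name, with earlier results of these data known, and the gene table of the array assigns 9 probe sets to them. For each gene the brightest probe set that names it alone stood for the gene, a choice that matters for Lpp alone, with 3 probe sets. Py2T, a mouse breast cancer cell line that turns mesenchymal under TGFβ, was profiled with 4 Affymetrix arrays. Of these, 2 untreated arrays came from cells in DMEM with 10% FCS, and the other 2 from the same line in the same medium given 2 ng/ml TGFβ for 5 days. Both groups come from 1 cell line, and the labels name no further genotype. They call the samples biological replicates without saying how the cultures were kept apart, so the p-values reflect how far these samples differ among themselves, which may be technical.

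Proteins of this family carry a row of LIM domains, zinc-binding modules, at their C-terminal end. The zyxin arm (zyxin, LPP, TRIP6 and migfilin, the product of Fblim1) sits at focal adhesions and on actin stress fibres, where it responds to tension and recruits actin regulators. The Ajuba arm (AJUBA, LIMD1 and WTIP) sits at cell-cell junctions and elsewhere, holds back the Hippo kinases LATS1 and LATS2, and acts as a corepressor with Snail factors. Zyxin is named in the title of the study beside Tead2, Yap and Taz. TEAD factors are the DNA-binding partners of the Hippo-regulated coactivators Yap and Taz.

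After TGFβ, 2 of the 7 genes rose, Wtip by 1.71-fold and Zyx by 1.69-fold, and 1 fell, Ajuba, which dropped by 0.41 on the log2 scale. Lpp, Trip6, Fblim1 and Limd1 did not pass. Over all 19938 genes 6.49% passed as higher and 7.15% as lower, 13.6% in all. A gene passed at an adjusted p under 0.05 in limma, a linear model per gene with variances moderated across genes, with Benjamini-Hochberg adjustment over all genes. None of the 7 passed with at least a 2-fold difference, which 3.4% of all genes did. The median log2 difference of the 7 genes was 0.08, with a range from -0.41 to 0.77, beside 0.01 over all genes. Each arm held 1 gene that rose and at least 1 that did not pass, and differences between members were not tested against each other.

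Promoters of the 3 genes that passed are shown because the title of the study names a TEAD factor, and because these 3 differ in how many TEAD motifs they hold. Each is the stretch of 250 bases before the gene's start in RefSeq's annotation of GRCm38.p6, written 5′ to 3′ along the gene, and capitals mark matches to the TEAD motif (GGAATG or its reverse complement) and to the AP-1 motif (TGANTCA, either strand).
Wtip promoter, chr7:34133269-34133518, minus strand: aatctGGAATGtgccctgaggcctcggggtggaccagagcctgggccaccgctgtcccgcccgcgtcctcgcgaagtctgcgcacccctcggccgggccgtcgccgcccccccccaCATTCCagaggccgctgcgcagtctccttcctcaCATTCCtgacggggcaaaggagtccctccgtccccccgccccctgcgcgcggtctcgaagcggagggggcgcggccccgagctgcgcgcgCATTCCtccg
Zyx promoter, chr6:42349578-42349827, plus strand: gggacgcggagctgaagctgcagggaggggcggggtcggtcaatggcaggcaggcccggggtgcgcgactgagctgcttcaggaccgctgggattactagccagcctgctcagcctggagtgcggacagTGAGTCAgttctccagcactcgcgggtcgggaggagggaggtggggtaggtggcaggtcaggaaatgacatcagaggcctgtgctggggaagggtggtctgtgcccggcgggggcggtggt
Ajuba promoter, chr14:54577662-54577911, minus strand: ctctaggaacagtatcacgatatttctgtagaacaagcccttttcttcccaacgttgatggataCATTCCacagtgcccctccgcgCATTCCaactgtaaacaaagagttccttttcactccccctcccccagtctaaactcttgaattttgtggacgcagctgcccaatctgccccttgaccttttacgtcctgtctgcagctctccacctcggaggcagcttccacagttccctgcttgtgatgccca

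The Wtip promoter held 4 TEAD motif matches, whose first bases lie 245, 134, 100 and 10 bases before the start. Of 32851 promoters of the same length, 12.6% held at least 1 such match, 1.02% at least 2, and 4 promoters (0.0122%) held 4 or more. Several promoters can belong to 1 gene, so these shares are over start sites. The Ajuba promoter held 2 matches, 186 and 164 bases before the start, in a gene that fell. The Zyx window held 0 matches to these letters and 1 AP-1 match, 121 bases before the start, a motif present in 6.75% of promoters. AP-1 was added to the search after the letters had been seen. Among the genes that did not pass, Trip6 held 1 TEAD match, 32 bases before its start, and Lpp and Fblim1 held 1 match each at 1 of their 2 annotated starts. In Fblim1 that match, 71 bases before the start, follows an AP-1 match at 80 bases, and a Smad motif (CAGAC, either strand) overlaps both. The Smad motif was found in 42.2% of promoters and a CArG box, the site of SRF, in 1.47%. No member window held a CArG box. Of the 8 member windows all but that of Trip6 held at least 1 CAGAC, so 5 of the 6 genes with a promoter did. The 42.2% is over windows, and Lpp and Fblim1 have 2 each. A match describes letters in this window and is not evidence of binding.

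**Figure D1:**
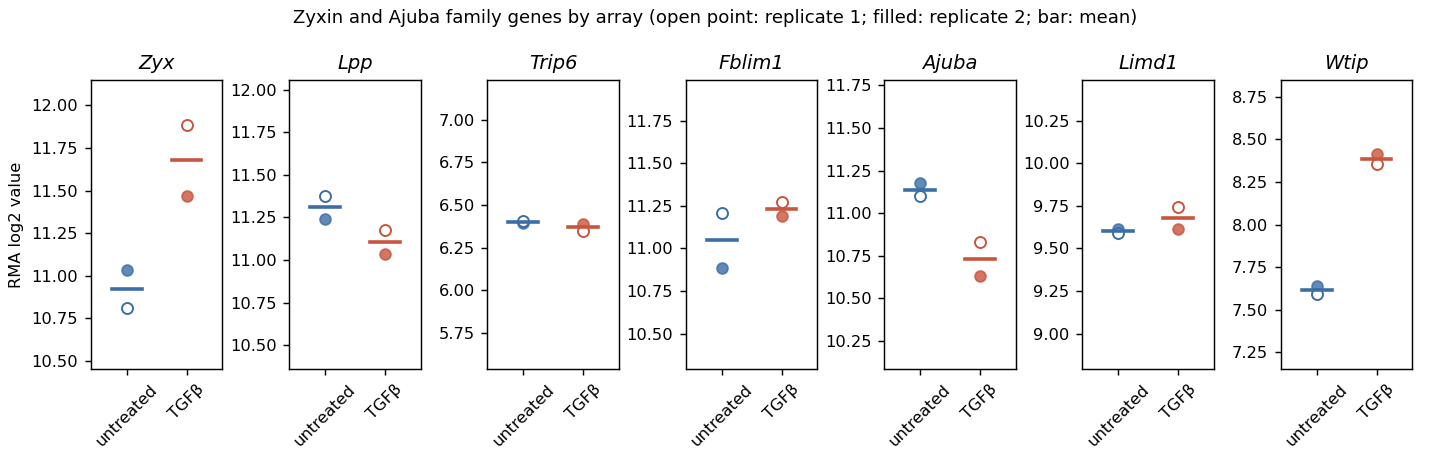
Deposited RMA log2 values of the 7 genes (vertical axes, each spanning the same range of log2 units around the gene's own mean) in untreated and TGFβ arrays. Points are single arrays, open for replicate 1 and filled for replicate 2, and bars are group means. Zyx and Wtip lie higher in both TGFβ arrays and Ajuba lies lower, while the groups of Fblim1 and Limd1 overlap.

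In the zyxin arm, Zyx, which encodes the focal adhesion and stress fibre protein zyxin, read 10.81 and 11.04 in untreated replicates 1 and 2 and 11.89 and 11.47 in TGFβ replicates 1 and 2 (RMA log2 values). Both TGFβ arrays lay above both untreated arrays, and the smallest gap between any pair was 0.44. The group means were 10.92 ± 0.16 and 11.68 ± 0.29 (SD, n = 2). The fitted log2 difference was 0.76 ± 0.16 (SE, 95% interval 0.37 to 1.14), with an adjusted p in limma of 0.030. Leaving out untreated replicate 1 gave 0.64 at an adjusted p of 0.117, and leaving out TGFβ replicate 1 gave 0.55 at 0.0631, so Zyx was not called in either case. The call was also lost when all 35556 probe sets were tested together (adjusted p = 0.0993). TGFβ replicate 1, where Zyx was higher, was also the TGFβ array with the lower mean of 4 epithelial markers, 11.82 against 12.10 in TGFβ replicate 2. Cdh1 read 9.97 and 10.66 in these arrays and Epcam 10.51 and 10.97, while Krt18 read 13.21 and 13.24 and Krt8 went the other way, at 13.61 and 13.54. The part these markers have in the Zyx values was not tested.

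Lpp encodes a close relative of zyxin that also reaches adhesions and cell contacts. Its brightest probe set read 11.38 and 11.24 in untreated cells and 11.18 and 11.04 after TGFβ, so the groups did not overlap. The log2 difference was -0.20 (95% interval -0.43 to 0.02, adjusted p = 0.243), which did not pass. It was -0.13 without untreated replicate 1 or TGFβ replicate 2, and -0.27 without untreated replicate 2 or TGFβ replicate 1. With the mean of the 3 probe sets it was -0.11. Groups that do not overlap are common with 2 arrays each: 52.6% of all genes show it, as do 5 of these 7. The second Lpp probe set differed by -0.17 (95% interval -0.51 to 0.17), in the same direction. The third, at a mean of 5.75, differed by 0.05 (95% interval -0.44 to 0.53), so it sets little limit on a change. Levels of different probe sets reflect their probes and are not compared as amounts of RNA.

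Fblim1 encodes migfilin, an adaptor between filamins and kindlins at adhesions. It read 11.21 and 10.89 in untreated cells and 11.27 and 11.19 after TGFβ. Untreated replicate 1 lay above TGFβ replicate 2, so the groups overlapped, and the wide untreated pair set the size of the error. The log2 difference was 0.18 (95% interval -0.11 to 0.48, adjusted p = 0.448). It was 0.35 without untreated replicate 1 and 0.02 without untreated replicate 2, neither of which passed.

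Trip6 encodes a zyxin relative that also takes part in receptor signalling. Its probe set read 6.41 and 6.39 in untreated cells and 6.35 and 6.39 after TGFβ, below the median of 7.31 over all genes. The log2 difference was -0.03 (95% interval -0.21 to 0.15, adjusted p = 0.873), and ran from -0.052 to -0.011 without 1 array. Without detection calls the deposited values do not say whether this probe set measured its transcript, and a change in Trip6 may not be visible here.

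In the Ajuba arm, Wtip, first known as a partner of the transcription factor WT1, read 7.59 and 7.64 in untreated cells and 8.35 and 8.42 after TGFβ. The replicates lay close together and every TGFβ value was at least 0.72 above every untreated value. The means were 7.62 ± 0.03 and 8.39 ± 0.04 (SD, n = 2). The log2 difference was 0.77 ± 0.07 (SE, 95% interval 0.59 to 0.95, adjusted p = 0.0026 in limma). Wtip passed without each of the 4 arrays in turn, at 0.74 to 0.80.

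Ajuba encodes a scaffold of cell-cell contacts, mitosis and Hippo signalling. It read 11.10 and 11.18 in untreated cells and 10.83 and 10.63 after TGFβ, with both TGFβ arrays below both untreated ones. The means were 11.14 ± 0.05 and 10.73 ± 0.14 (SD, n = 2), and the log2 difference was -0.41 ± 0.09 (SE, 95% interval -0.64 to -0.18), with an adjusted p of 0.042 in limma. This call sits near the threshold. Median centring ended it (-0.39, adjusted p = 0.0646), as did testing all probe sets together (adjusted p = 0.11). Leaving out untreated replicate 1 or 2 gave -0.45 and -0.37, with adjusted p of 0.117 and 0.17, and leaving out TGFβ replicate 2 gave -0.31 (adjusted p = 0.12). Ajuba passed when TGFβ replicate 1 was the array left out (-0.51, adjusted p = 0.0375).

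Limd1 encodes a scaffold that links prolyl hydroxylases to VHL and takes part in microRNA silencing. It read 9.59 and 9.61 in untreated cells and 9.75 and 9.61 after TGFβ. TGFβ replicate 1 stood above the other arrays, and TGFβ replicate 2 fell between the untreated values. The log2 difference was 0.08 (95% interval -0.12 to 0.28, adjusted p = 0.679), so the interval leaves room for a small change in either direction. It was 0.0097 without TGFβ replicate 1 and 0.14 without TGFβ replicate 2.

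**Figure D2:**
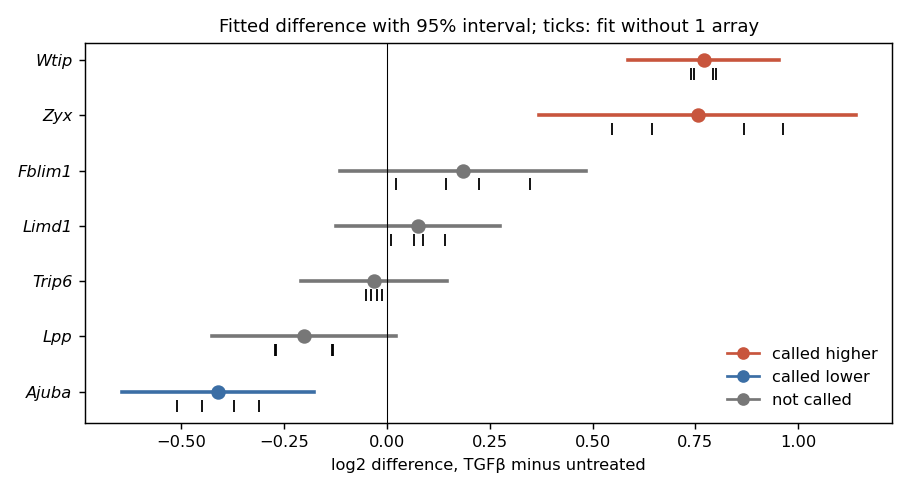
Fitted log2 difference, TGFβ minus untreated, of each gene (point) with its 95% interval (bar), and the 4 values obtained when 1 array is left out (ticks). The ticks of Wtip lie between 0.74 and 0.80, those of Zyx between 0.55 and 0.96 and those of Ajuba between -0.51 and -0.31.

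The fitted differences of Wtip and Zyx were alike in size and unlike in spread. The replicate SD within groups was 0.04 for Wtip and 0.24 for Zyx, against a median of 0.08 over all genes, and 95.4% of genes had a replicate SD at or below that of Zyx. For Wtip that share was 16.4%. In absolute size the differences of Wtip and Zyx ranked at the 94.6 and 94.4 percentiles of all genes. Ajuba, with a replicate SD of 0.11, ranked at 86.4, and the 4 genes that did not pass at 19.0 (Trip6), 40.9 (Limd1), 67.9 (Fblim1) and 70.3 (Lpp).

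**Figure D3:**
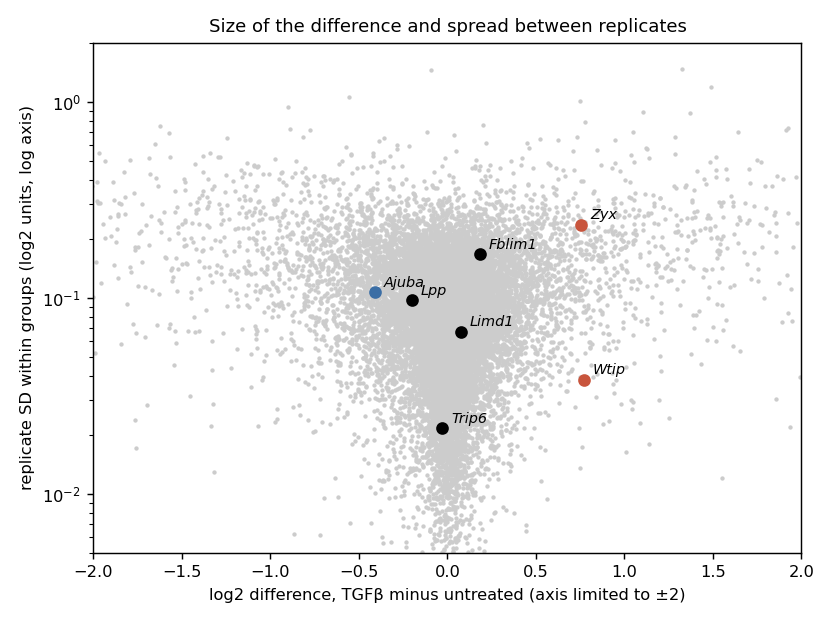
Log2 difference, TGFβ minus untreated (horizontal axis), against the replicate SD within groups (vertical log axis) for all genes (grey points) and the 7 family members (labelled; red, called higher; blue, called lower; black, not called). Wtip and Zyx share a difference near 0.8 at replicate SDs of 0.04 and 0.24.

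Genes whose pattern over the 4 arrays came nearest to that of each called member were sought among 10220 other genes whose mean reached 7. Pseudogenes, predicted genes and genes of small RNAs or of olfactory and vomeronasal receptors were not considered. Likeness was the root mean square distance, in log2 units, between values centred on each gene's own mean. Nearest to Zyx were Syde1 (0.032), Uap1 (0.037), Rassf1 (0.038), Ptbp2 (0.039) and Sdcbp2 (0.043), whose log2 differences ran from 0.71 to 0.82. Like Zyx, each of these 5 had its highest value in TGFβ replicate 1 and its lowest in untreated replicate 1. Rassf1 encodes a scaffold that binds the Hippo kinases MST1 and MST2, Syde1 a GTPase-activating protein, and Uap1 an enzyme that makes UDP-N-acetylglucosamine. Nearest to Wtip were Nckap5l (0.027), Cln8 (0.027) and C1galt1 (0.035), and nearest to Ajuba were Creb1, Crip2 (both 0.013) and Unkl (0.017). With 4 arrays in 2 groups such likeness describes these arrays and tests nothing.

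Genes of the study's title set the scene for these values. Tead2 read 9.83 and 9.49 in untreated cells and 11.38 and 11.21 after TGFβ, a rise of 1.64 ± 0.13 (log2 difference ± SE, adjusted p = 0.0016 in limma). Both TGFβ arrays lay far above both untreated ones, with a gap between the groups several times the spread within them. Yap1 differed by 0.09 (adjusted p = 0.55). Wwtr1, which encodes Taz, differed by 0.39 (adjusted p = 0.0791 in limma) and did not pass. Its difference was 0.53 without TGFβ replicate 2 and 0.26 without TGFβ replicate 1. Without untreated replicate 1 or 2 it was 0.46 and 0.33.

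Of 13 measured binding partners of the zyxin arm 2 rose, 1 fell and 10 did not pass, where 13.6% of all genes passed. They had a median log2 difference of 0.25 beside 0.01 over all genes. Without TGFβ replicate 1 that median was 0.09. All 13 partners had means of at least 7, as did 10689 of all 19938 genes. In the lists below 5 of 6, 19 of 20 and 18 of 27 did. With the dimmer 50% of genes left out 2454 genes passed, against 2720 over all. A share over brighter genes would thus be larger than the 13.6%, and the lists were not compared with genes of like brightness. Csrp2, a LIM-only protein that binds α-actinin, rose from 9.08 and 9.09 to 10.63 and 10.06, a difference of 1.26 ± 0.18 (SE, adjusted p = 0.0098). Palld, the actin-bundling protein palladin, rose from 7.30 and 7.10 to 8.45 and 8.08, a difference of 1.07 ± 0.14 (SE, adjusted p = 0.0077). In both genes the 2 groups stood clear of each other, and TGFβ replicate 1 was the higher TGFβ array, as in Zyx. Lasp1, a LIM and SH3 protein that binds zyxin, fell by 0.37 (adjusted p = 0.0242), a call lost without each of the 4 arrays in turn (adjusted p from 0.0721 to 0.119). The main actin-side partners of zyxin did not pass: the α-actinins Actn1 and Actn4 differed by 0.16 and 0.00025, and the actin-elongating Vasp, Enah and Evl by 0.13, 0.36 and 0.14.

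Of 6 measured partners of migfilin 3 rose and 3 were not called, where 6.49% of all genes rose. Their median log2 difference was 0.56. It was 0.47 without TGFβ replicate 1, 0.66 without TGFβ replicate 2, and 0.88 without the dimmer 50% of genes. The last setting leaves out Fermt3, which had a mean of 6.60 and differed by 0.05. Flnc, filamin C, which crosslinks actin, rose from 8.62 and 9.09 to 10.73 and 10.34, a difference of 1.68 ± 0.19 (SE, adjusted p = 0.0046). The kindlins Fermt1 and Fermt2, which activate integrins, rose by 1.30 ± 0.12 (SE, adjusted p = 0.0022) and 0.88 ± 0.12 (SE, adjusted p = 0.0084). All 3 passed under every setting that left out 1 array, with Fermt2 between 0.72 and 1.04. Flna, filamin A, differed by 0.03 (adjusted p = 0.89), and Fblim1 itself did not pass (above).

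Of 20 measured partners of the Ajuba arm 4 rose, 1 fell and 15 were not called, beside 6.49% and 7.15% of all genes that rose and fell. They had a median log2 difference of 0.0095, close to the 0.0097 over all genes. Without TGFβ replicate 2 the list's median was 0.078, without TGFβ replicate 1 it was -0.011, and after cyclic loess and repeated quantile normalization it was -0.014 and -0.012, so it has no settled sign. Snai1, the repressor that Ajuba proteins assist, rose from 8.95 and 9.01 to 10.39 and 10.06, a difference of 1.24 ± 0.12 (SE, adjusted p = 0.0028). Its relative Snai2 rose by 0.70 ± 0.08 (SE, adjusted p = 0.0050). Egln3, a prolyl hydroxylase of the hypoxia response, rose by 0.71 ± 0.10 (SE, adjusted p = 0.0097). Traf6, a ubiquitin ligase of inflammatory signalling, fell by 0.41 (adjusted p = 0.0257), which did not pass when untreated replicate 1 or 2 or TGFβ replicate 2 was left out, at adjusted p of 0.1, 0.116 and 0.0824. The Hippo kinases Lats1 and Lats2, which Ajuba proteins bind, differed by -0.0044 (adjusted p = 0.989) and -0.23 (adjusted p = 0.381) and did not pass.

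Of 27 other measured LIM proteins of adhesions and the actin cytoskeleton 5 rose, 5 fell and 17 were not called (median log2 difference 0.15), beside 6.49% and 7.15% of all genes that rose and fell. Without TGFβ replicate 1 that median was 0.07. Pdlim1, an α-actinin-binding LIM protein, rose from 7.85 and 7.95 to 9.80 and 9.29, and Mical2, an actin-oxidising enzyme with a LIM domain, from 8.50 and 8.59 to 9.94 and 9.89. Their log2 differences were 1.65 ± 0.17 (SE, adjusted p = 0.0032) and 1.37 ± 0.08 (SE, adjusted p = 5.9e-04). Pdlim7, also called Enigma, rose by 0.76 ± 0.09 (SE, adjusted p = 0.0056). Ablim1, an actin-binding LIM protein, fell from 8.78 and 8.69 to 7.29 and 7.45, and Fhl1, a protein made of LIM domains, from 9.01 and 8.93 to 7.66 and 7.62. These falls, of 1.37 and 1.33 on the log2 scale, had adjusted p of 7.6e-04 and 6.1e-04. Lmo7, a junction and actin protein with a LIM domain, fell by 0.80 (adjusted p = 0.0043), with both group means under 7. Paxillin, Pxn, a LIM protein of focal adhesions outside the zyxin family, differed by 0.21 (adjusted p = 0.169).

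**Figure D4:**
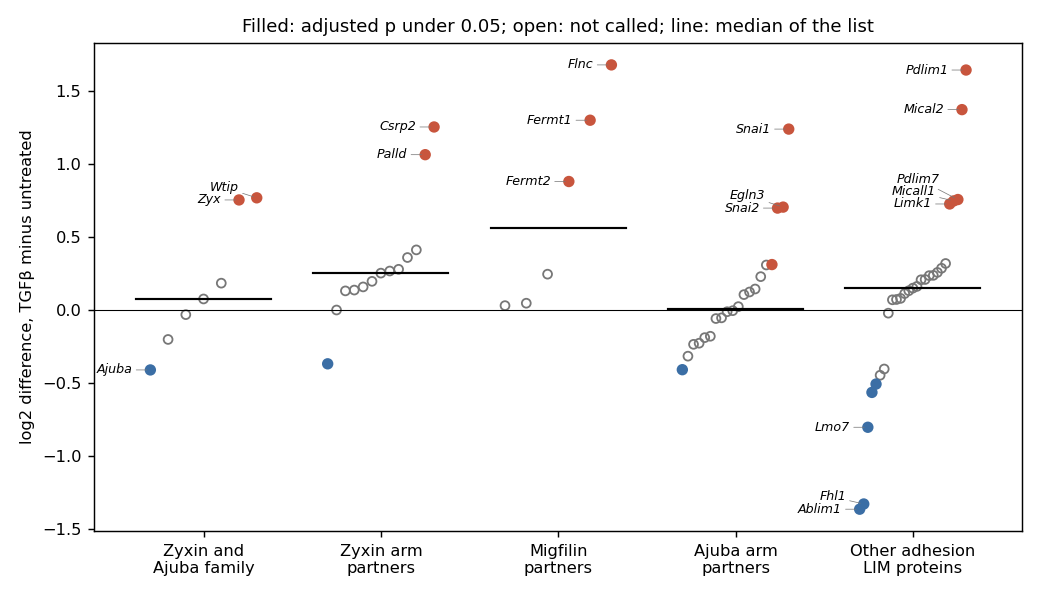
Log2 difference, TGFβ minus untreated, of the zyxin and Ajuba family, of 3 lists of their binding partners and of other adhesion LIM proteins. Each point is a gene, filled where it passed at an adjusted p under 0.05 (red, higher; blue, lower), and the line is the median of the list. The medians are 0.08, 0.25, 0.56, 0.0095 and 0.15 from left to right.

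The labelled cell type was checked against markers. Krt8 and Krt18, keratins of luminal epithelium, read 13.48 to 13.61 and 13.21 to 13.34 over the 4 arrays, near the top of the scale. Of 4 epithelial markers 0 rose, 2 fell (Cdh1 and Epcam) and 2 did not pass, and their mean was 12.57 and 12.56 in untreated arrays and 11.82 and 12.10 in TGFβ arrays. Of 4 fibroblast markers 1 rose (Col1a1, by 0.46) and 3 did not pass, with a list mean from 6.47 to 6.79. Dcn and Lum had means of 5.17 and 4.35, towards the bottom of the scale. Col1a1 and Pdgfra had means of 8.17 and 8.61, above the median of 7.31 over all genes. Pdgfra differed by 0.49 (adjusted p = 0.0965 in limma), with both TGFβ arrays above both untreated ones. The 3 leukocyte and 3 endothelial markers measured held no call, with list means from 6.46 to 6.78 and from 5.69 to 5.78. Among the leukocyte markers Csf1r had a mean of 7.40, just above the median over all genes. It differed by -0.45 (adjusted p = 0.204 in limma). Ptprc and Cd3e had means of 5.53 and 6.87. Of 3 myoepithelial markers Krt14 fell by 1.38 (adjusted p = 0.043 in limma), with list means from 7.66 to 8.36. Krt14 was bright and its replicates lay far apart, at 11.14 ± 0.50 untreated and 9.76 ± 0.56 after TGFβ (SD, n = 2). Acta2 and Trp63 did not pass and had means of 6.82 and 6.73. In bulk RNA fewer cells of a type and less RNA per cell cannot be told apart, and the part of these markers in the family's values was not tested.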

How the data were processed

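RNA of 4 samples, 2 untreated and 2 TGFβ-treated, was measured on arrays from 100 ng of total RNA each. The deposited values are log2 values made by the authors with RMA in the R package oligo, per the submitters' processing notes, over 35556 probe sets, ranging from 3.328 to 14.29. For the probe sets, build and annotation level: not given in the sources used here. Array medians lay between 6.742 and 6.756, and the number of arrays limits the precision.

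Names came from the array's gene table, in which 21789 probe sets carry 1 symbol, 1621 several and 12146 none. The brightest probe set stood for each of 19938 genes, and 999 genes had several. Of these genes 19856 were found in the RefSeq table, and 0 symbols changed. The comparison used limma 3.58.1 (R 4.3.3), two-sided, with 2 residual degrees of freedom and 3.775 from the prior, with no further filter or normalization. With 2 arrays a group, the smallest two-sided p of an exact permutation test is 0.333. Intervals are 95% intervals. On simulated data with 200 of 19938 genes changed, 78.8% of log2 differences of 0.5 and 99.7% of differences of 1 were recovered. There were 22.1 false calls on average, more than the threshold of 0.05 aims at. The simulation drew independent normal noise and changed a smaller share of genes than the 13.6% called here. Its rates need not hold for these data.

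The members, the lists, the naming rule and the tests were chosen with earlier results of these data known. The rule named the 7 members, Tead2, Yap1 and Wwtr1, up to 3 called rises and 3 called falls per partner list, the 5 genes most like Zyx and the 3 most like each other called member, and cell type markers. Pxn, Flna, Fermt3, the Lats kinases, the α-actinins, Vasp, Enah and Evl were added after their values were seen. Some list genes and protein sequences are not analysed here. Promoters from RefSeq (GRCm38.p6) matched 6 of the 7 members, all but Limd1.

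Same-numbered arrays of the groups had deviations from their group means that correlated at -0.2125 over genes, so the numbers were not taken to pair the samples. The alternatives changed the scaling (cyclic loess, median centring, a repeat of quantile normalization), the genes kept (without the lowest 25% or 50% by mean), the probe sets (their mean per gene, or all of them), the variances (robust, with a trend on intensity), the block (replicate number), the threshold (2-fold minimum) and the arrays (each left out in turn).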

Additional observations from a re-analysis of the deposited data

How the results depend on the processing

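Gene filters, variance settings, blocks, the test of all probe sets and the 2-fold minimum cannot change a member's difference. Only the scaling, the arrays left out and, for Lpp, the mean of its probe sets could. Every member kept its direction, but Trip6 (-0.055 to -0.011) and Limd1 (0.0097 to 0.14) stayed near 0. The sign kept by these genes therefore says little. Of the alternatives run, Trip6 could not be tested in that without the dimmer 50% of genes. Wtip passed in each except with a 2-fold minimum, where 0 of the 7 passed, beside 3 by adjusted p alone (Zyx 0.76, Wtip 0.77 and Ajuba -0.41 on the log2 scale). With the replicate number as a block, whose numbers share no stated pairing, 1624 genes passed, against 2720 without it, and 1 member, with Zyx (0.76, adjusted p = 0.087) and Ajuba (-0.41, adjusted p = 0.102) not passing. A crossed pairing, added after seeing the data, gave 3640 calls and 3 members. With all probe sets tested, 1536 probe sets and 1 member passed, and Zyx (0.76) and Ajuba (-0.41) did not. Ajuba also missed the threshold after median centring (-0.39, adjusted p = 0.0646). Without 1 array the calls ranged from 1535 to 2260 genes and from 1 to 2 members, with differences from 0.55 to 0.96 for Zyx, from -0.51 to -0.31 for Ajuba and from 0.74 to 0.80 for Wtip. Those fits give a lone array the spread of the opposite group. The Ajuba partner calls, 5 of 20, were 3 with the block, 3 with all probe sets, 1 at 2-fold and 3 to 4 without 1 array. A 2-fold minimum left 677 genes and 4 of the 10 calls among other LIM proteins. Why calls were lost with the block, all probe sets or median centring was not tested, and fewer arrays and the added minimum act by construction. Dim probe sets such as Trip6 limit what can be seen.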
